A study of Homo sapiens with 9 samples.

Results

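The genes described here are 9 well-known estrogen-induced genes of luminal breast cancer cells: GREB1, TFF1, TFF3, PDZK1, CA12, AGR2, AGR3, MYB and SIAH2. They were chosen by symbol as known targets of the estrogen receptor, with earlier results of these data known. Each had exactly 1 probe set, out of 21214 probe sets with a gene symbol. For 8 of the 9 that probe set carried the member's symbol alone, while the PDZK1 probe set was also annotated to the pseudogene PDZK1P1, so its values cannot be given to either gene separately.

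RNA was measured on 9 Affymetrix human gene arrays from T47D cells, an established luminal breast cancer line with estrogen and progesterone receptors. All 9 arrays came from T47D cells carrying pHUSH, a retroviral vector whose hairpin RNA targets ELF5 once doxycycline is given. ELF5 is an ETS transcription factor of the alveolar mammary lineage. Each array held cells pooled from 3 wells. The groups of 3 arrays each were progestin plus doxycycline (10 nM ORG2058, a synthetic progestin that the labels call progesterone, with 0.1 µg/ml doxycycline for 4 days), progestin (10 nM ORG2058 for 4 days) and ethanol vehicle, for which no time is given. No group received estrogen or an antiestrogen by the labels, and whether the line is a clone or a pool is not given there. Doxycycline was not given without progestin, nor to cells without the hairpin, so hairpin and doxycycline cannot be told apart here. The labels give no array batch, so whether treatment and batch coincide is not known.

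Estrogen acts in luminal cells through the estrogen receptor ESR1, which binds DNA at estrogen response elements, often in distant enhancers that FOXA1 and GATA3 hold open, and raises transcription of genes such as those described here. The progesterone receptor PGR is itself an estrogen-induced gene, and a liganded progesterone receptor is known to bind near the estrogen receptor and to change where it sits. The members fall into an estrogen receptor partner (GREB1), a transcription factor (MYB), secreted trefoil peptides (TFF1, TFF3), protein-folding enzymes of the secretory pathway (AGR2, AGR3), membrane proteins that handle transport and acid (PDZK1, CA12) and a ubiquitin ligase (SIAH2).

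Promoters are shown for AGR2 and AGR3, neighbouring paralogs on chromosome 7, with 1 annotated gene between them, that moved in opposite directions. Those of PDZK1 and CA12 are shown too. Among the members' probe sets, the one PDZK1 shares with PDZK1P1 had the lowest progestin change and that of CA12 the highest. The windows run from 250 bases before to 50 after the start site (RefSeq, GRCh38.p14), and RefSeq promoter windows were found for 6 of the 9 members, also including MYB and SIAH2. Capitals mark GGTCA, the estrogen response half-site, in either strand direction (TGACC on the opposite strand).
AGR2 (chr7:16804950-16805249, minus strand): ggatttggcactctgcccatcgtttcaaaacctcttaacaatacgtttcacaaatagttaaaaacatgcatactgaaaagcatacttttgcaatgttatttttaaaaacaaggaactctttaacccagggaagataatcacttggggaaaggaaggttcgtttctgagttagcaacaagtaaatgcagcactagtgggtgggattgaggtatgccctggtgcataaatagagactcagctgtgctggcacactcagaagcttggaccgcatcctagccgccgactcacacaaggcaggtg
AGR3 (chr7:16881934-16882233, minus strand): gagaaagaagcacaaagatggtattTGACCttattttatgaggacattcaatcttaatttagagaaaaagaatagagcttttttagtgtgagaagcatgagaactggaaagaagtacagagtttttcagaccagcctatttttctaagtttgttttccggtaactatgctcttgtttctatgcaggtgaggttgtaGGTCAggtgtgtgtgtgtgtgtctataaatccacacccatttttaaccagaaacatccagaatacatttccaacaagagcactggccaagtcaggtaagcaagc
PDZK1 (chr1:145707351-145707650, minus strand): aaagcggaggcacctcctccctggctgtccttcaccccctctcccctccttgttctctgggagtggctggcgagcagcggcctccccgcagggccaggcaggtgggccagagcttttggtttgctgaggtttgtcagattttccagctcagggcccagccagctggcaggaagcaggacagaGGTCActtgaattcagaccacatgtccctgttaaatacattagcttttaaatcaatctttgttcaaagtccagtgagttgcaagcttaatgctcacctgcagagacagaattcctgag
CA12 (chr15:63381797-63382096, minus strand): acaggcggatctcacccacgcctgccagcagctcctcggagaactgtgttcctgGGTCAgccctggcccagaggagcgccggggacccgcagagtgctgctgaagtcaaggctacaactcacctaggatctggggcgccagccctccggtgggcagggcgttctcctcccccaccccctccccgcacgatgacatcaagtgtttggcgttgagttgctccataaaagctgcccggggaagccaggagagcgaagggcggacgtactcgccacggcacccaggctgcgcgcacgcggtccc

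The AGR3 window held 2 half-sites, the PDZK1 and CA12 windows 1 each, and the AGR2, MYB and SIAH2 windows 0. PDZK1 had a second annotated start site nearby, whose window held the same half-site. Of 35116 RefSeq promoter windows of the same length 37.4% held at least 1 half-site. The full element, GGTCA and TGACC with NNN between them, was in 0.057% of all windows and in 0 of those of the 6 members. These are matches of letters within short windows and are no evidence of binding or of its absence.

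The label was checked against cell type markers. The 8 luminal markers (KRT8, KRT18, KRT19, EPCAM, CDH1, ESR1, GATA3, FOXA1) lay above the median of all named probe sets on every array. Of 11 measured markers of basal, stromal, endothelial and immune cells, 2 or 3 did so on any array. The summed linear level of the luminal markers was 33056 to 35508.3 with progestin plus doxycycline, 33525.2 to 34104 with progestin and 30424.5 to 31452.2 with vehicle. The keratins KRT8, KRT18 and KRT19 read highest and weigh most in this sum. With progestin against vehicle KRT19 rose by 0.46 (adjusted p = 0.000838), ESR1 and GATA3 fell, and the other luminal markers were not called. The summed level of the other 11 was 1113.9 to 1257.3 with progestin plus doxycycline, 1145.8 to 1195.5 with progestin and 1171.2 to 1342.6 with vehicle. With progestin against vehicle KRT5 (0.61, adjusted p = 0.0363, call lost in 6 of 15 alternative settings) and PECAM1 (0.34, adjusted p = 0.0194, lost in 5) were higher, and ACTA2 (-0.30, adjusted p = 0.0351, lost in 9) and COL1A1 (-0.42, adjusted p = 0.0136, lost in 1, without vehicle replicate 1) were lower. PECAM1 read below the array's median on every array, and a second PECAM1 probe set with lower signal gave -2.92 (adjusted p = 0.263). With progestin plus doxycycline against vehicle the basal keratin KRT5 was higher (1.03, adjusted p = 0.00322) and ACTA2 lower (-0.40, adjusted p = 0.0089), both in all 15 settings. KRT5 read below the array's median on all vehicle arrays, and ACTA2 on all progestin plus doxycycline arrays. Whether they were above background there is not known, so these changes are ratios of signals. The part of these markers in the members' changes was not tested.

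ELF5, the hairpin's target, averaged 10.42 ± 0.0608 with progestin plus doxycycline, 11.28 ± 0.0455 with progestin and 10.17 ± 0.109 with vehicle (log2, SD, n = 3 arrays each). Its drop with doxycycline, -0.87 (SE 0.08), had an adjusted p of 0.029 in limma and kept its call in 5 of 15 alternative settings, with adjusted p up to 0.204.

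Progestin against vehicle asked what 4 days of the hormone did to these genes. The set split. PDZK1/PDZK1P1, TFF3, MYB, TFF1 and AGR2 fell, with log2 changes of -3.77 to -0.51, while CA12, GREB1 and AGR3 rose by only 0.38 to 0.41. Thus 8 of 9 members were called by limma, 3 higher and 5 lower, against 29.0% of all tested probe sets (13.4% higher and 15.6% lower). Among the 8 members with a probe set of their own, 3 rose and 4 fell. Their median was -0.16 log2 units, against -0.51 for all 9. The median size of change, without sign, was 0.51 log2 units for the members and 0.23 for all probe sets, and 3 of 9 members against 6.28% of all probe sets changed at least 2-fold. For all 9 members the progestin and vehicle arrays lay apart, against 42.3% of all probe sets, and all 9 had an unadjusted p under 0.05, against 39.0%. The smallest p of an exact permutation test in groups of this size is 0.1. In such bulk RNA, fewer cells that express a gene and less of its RNA per cell cannot be told apart. The plot of the members by array shows these values.

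**Figure D1:**
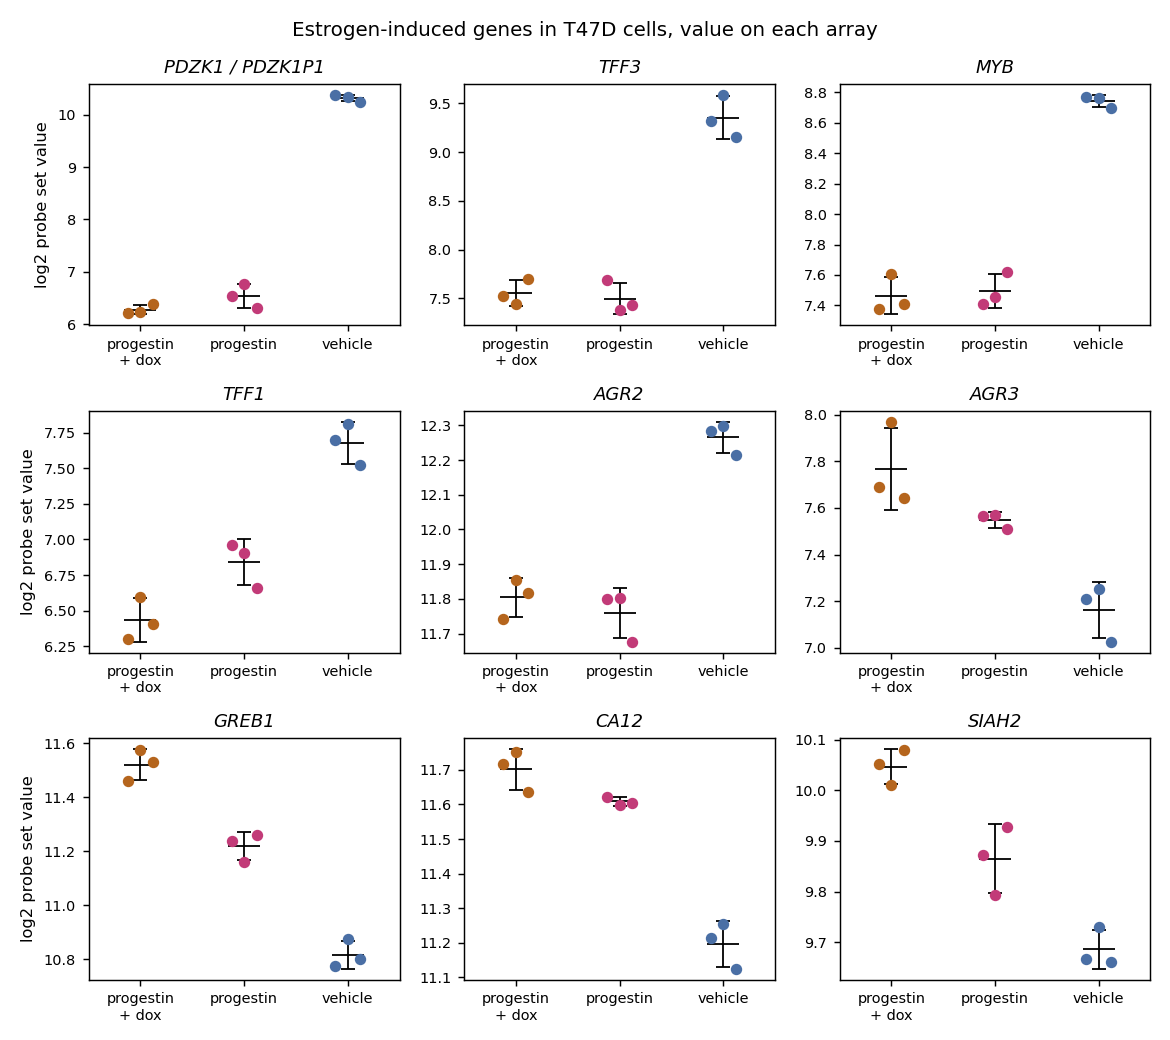
Log2 probe set value (y axis, a separate scale in each panel) of each member on each of the 9 arrays, in progestin plus doxycycline, progestin and vehicle cells; points are arrays, and the bar and whiskers are the mean and SD of 3 arrays. In the panels from PDZK1/PDZK1P1 to AGR2 the vehicle arrays lie highest, and from AGR3 to SIAH2 they lie lowest.

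PDZK1 encodes a scaffold with PDZ domains that anchors transporters at the cell membrane. The probe set it shares with PDZK1P1 read 6.23, 6.23 and 6.39 with progestin plus doxycycline, 6.54, 6.77 and 6.32 with progestin, and 10.37, 10.33 and 10.25 with vehicle (log2). All 6 progestin-treated arrays lay far below all vehicle arrays, and the 2 progestin-treated groups overlapped. With progestin the signal was 13.7-fold lower (log2 change -3.77, SE 0.12, adjusted p = 3.05e-07). Ordered by signed change, it stood at percentile 0.18 of all probe sets. On all progestin-treated arrays PDZK1/PDZK1P1 and TFF1 read below the array's median, and with no detection calls used here it is not known whether they were above background, so their folds are ratios of signals and not of RNA amounts.

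TFF3 and TFF1 are small secreted trefoil peptides of mucosal surfaces, and TFF1, first found as pS2, is the classic estrogen-induced mRNA of breast cancer cells. Their genes lie in one cluster on chromosome 21 with TFF2 between them. TFF3 read 7.52, 7.44 and 7.70 with progestin plus doxycycline, 7.68, 7.38 and 7.43 with progestin, and 9.32, 9.59 and 9.15 with vehicle (log2). The progestin-treated groups overlapped each other and lay apart from vehicle. Progestin lowered TFF3 3.62-fold (log2 change -1.86, SE 0.14, adjusted p = 2.55e-05).

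TFF1 read 6.30, 6.60 and 6.41 with progestin plus doxycycline, 6.96, 6.91 and 6.66 with progestin, and 7.70, 7.81 and 7.52 with vehicle (log2). Here the 3 groups formed 3 separate steps with no overlap. The progestin change was -0.84 (SE 0.12, adjusted p = 0.00121), a 1.78-fold fall. The 95% confidence intervals of the progestin changes of the paralogs did not meet, at -2.17 to -1.55 for TFF3 and -1.11 to -0.56 for TFF1, although the difference between the 2 genes was not itself tested.

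MYB encodes a transcription factor that keeps progenitor cells dividing, and in estrogen receptor-positive breast cancer cells estrogen is known to release its paused transcription. It read 7.38, 7.61 and 7.41 with progestin plus doxycycline, 7.41, 7.45 and 7.62 with progestin, and 8.77, 8.76 and 8.70 with vehicle (log2). The vehicle arrays lay together above all progestin-treated arrays, whose 2 groups overlapped. Progestin lowered MYB 2.38-fold (log2 change -1.25, SE 0.09, adjusted p = 2.34e-05).

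AGR2 and AGR3 encode disulfide isomerase-like proteins of the endoplasmic reticulum, and AGR2 helps to fold mucins. AGR2 read 11.74, 11.85 and 11.82 with progestin plus doxycycline, 11.80, 11.80 and 11.68 with progestin, and 12.28, 12.30 and 12.22 with vehicle (log2). AGR3 read 7.69, 7.97 and 7.64 with progestin plus doxycycline, 7.57, 7.57 and 7.51 with progestin, and 7.21, 7.25 and 7.03 with vehicle (log2). The neighbours thus went opposite ways: every progestin-treated array was below every vehicle array for AGR2 and above every one for AGR3. Progestin changed AGR2 by -0.51 (SE 0.07, adjusted p = 0.000882) and AGR3 by 0.38 (SE 0.10, adjusted p = 0.0248). The AGR3 call was lost without vehicle replicate 1 (adjusted p = 0.0561), vehicle replicate 3 (0.065), progestin replicate 1 (0.0718) or progestin replicate 2 (0.0689), while its change stayed between 0.32 and 0.43 over all alternatives.

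GREB1 encodes a protein that binds the estrogen receptor on chromatin and is one of its most strongly estrogen-induced targets. It read 11.46, 11.57 and 11.53 with progestin plus doxycycline, 11.24, 11.16 and 11.26 with progestin, and 10.77, 10.87 and 10.80 with vehicle (log2). As for TFF1 the groups formed 3 steps without overlap, but upward, and the same was seen for AGR3, CA12 and SIAH2. The step from progestin to progestin plus doxycycline was not called for any of these genes. Progestin raised GREB1 1.32-fold (log2 change 0.40, SE 0.07, adjusted p = 0.0026).

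CA12 encodes a membrane-bound carbonic anhydrase that acidifies the space outside the cell. It read 11.72, 11.75 and 11.64 with progestin plus doxycycline, 11.62, 11.60 and 11.61 with progestin, and 11.21, 11.25 and 11.12 with vehicle (log2). The progestin arrays of CA12 were the tightest group of any member (SD 0.0117). The progestin change was 0.41 (SE 0.07, adjusted p = 0.00215), or 1.33-fold.

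SIAH2 encodes a ubiquitin ligase that marks proteins for destruction, among them corepressors of nuclear receptors. It read 10.05, 10.01 and 10.08 with progestin plus doxycycline, 9.87, 9.79 and 9.93 with progestin, and 9.67, 9.73 and 9.66 with vehicle (log2). The groups did not overlap, yet the progestin change of 0.18 (SE 0.07) had an adjusted p of 0.0792. It passed the threshold after quantile normalization (adjusted p = 0.0157) or when limma fitted a variance trend robustly (0.0333), and reached 0.204 at most over the alternatives.

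Adding doxycycline to progestin asked what doxycycline, together with the hairpin against ELF5 that it induces, did to the same genes. In limma 0 of 9 members were called, against 0.0189% of all probe sets (0.00943% higher and 0.00943% lower), and 3 of 9 had an unadjusted p under 0.05 (GREB1, TFF1 and SIAH2), against 14.0%. With the variance trend, which called 530 of all 21214 probe sets, 1 member was called, GREB1 (adjusted p = 0.00316). The progestin plus doxycycline and progestin arrays did not overlap for 5 of 9 members, GREB1, CA12, AGR3 and SIAH2 higher and TFF1 lower, against 21.2% of all probe sets (14.8% higher and 6.43% lower). This comparison shares the progestin arrays with progestin against vehicle.

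The log2 change of GREB1 with doxycycline was 0.30 (95% confidence interval 0.14 to 0.46, adjusted p = 0.143), and that of TFF1 was -0.41 (-0.69 to -0.13, adjusted p = 0.207). SIAH2 had a change of 0.18 (0.03 to 0.33, adjusted p = 0.291) and AGR3 of 0.22 (-0.02 to 0.46, adjusted p = 0.394). For CA12 it was 0.09 (-0.06 to 0.25, adjusted p = 0.586). None of these passed the threshold over all probe sets. The remaining members had intervals that included 0: -0.53 to 0.01 for PDZK1/PDZK1P1, -0.25 to 0.37 for TFF3, -0.24 to 0.18 for MYB and -0.11 to 0.21 for AGR2.

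Progestin plus doxycycline against vehicle gave the hormone response with doxycycline present to induce the hairpin. In it all 9 members were called, 4 higher and 5 lower, against 28.1% of all probe sets (15.6% higher and 12.5% lower), and the count was 9 in each of the 15 alternative settings. The arrays of these groups did not overlap for 9 of 9 members, against 41.8% of all probe sets. The PDZK1/PDZK1P1 signal was lower by 16.4-fold (log2 change -4.03, SE 0.12, adjusted p = 2.16e-07), TFF3 by 3.48-fold, MYB by 2.43-fold, TFF1 by 2.37-fold and AGR2 by 1.38-fold. GREB1 was higher by 1.63-fold (log2 change 0.70, SE 0.07, adjusted p = 0.000111), AGR3 by 1.52-fold, CA12 by 1.42-fold and SIAH2 by 1.28-fold. SIAH2, with a log2 change of 0.36 (SE 0.07, adjusted p = 0.00392), passed here and not with progestin alone, and the difference between these changes is the contrast with progestin, which was not called.

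**Figure D2:**
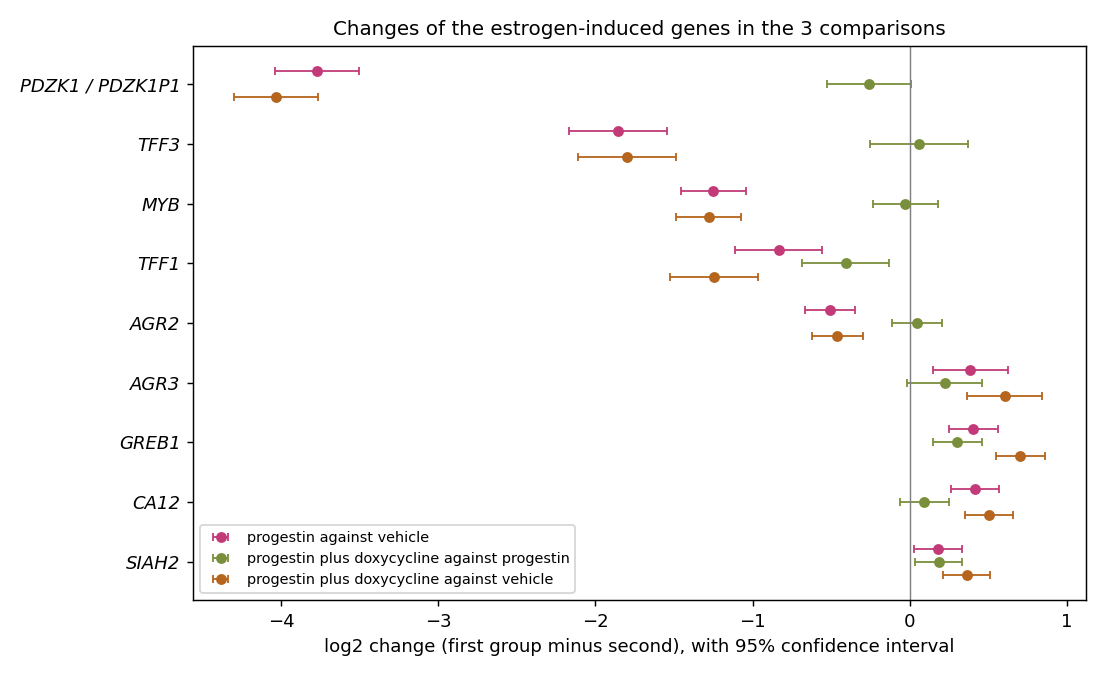
Log2 change (x axis) of the 9 members (rows) in each of the 3 comparisons; points are limma estimates and whiskers 95% confidence intervals. The changes of progestin plus doxycycline against progestin lie between -0.41 and 0.30, while those against vehicle reach -4.03.

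The receptors and partners that act on these genes were read from a list of 10, of which 8 had a single-symbol probe set. That list was also chosen with earlier results of these data known. With progestin 5 fell and 1 rose, against 15.6% lower and 13.4% higher among all probe sets, with a median of -0.46, against 0.02 for all. The count that rose is near the share of all probe sets. PGR, itself an estrogen target, read 9.86, 9.99 and 10.03 with progestin plus doxycycline, 9.68, 9.62 and 9.60 with progestin, and 11.92, 11.92 and 11.89 with vehicle (log2). It was 4.84-fold lower with progestin than with vehicle (log2 change -2.28, SE 0.07, adjusted p = 2.96e-07).

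ESR1, the estrogen receptor, read 8.43, 8.48 and 8.41 with progestin plus doxycycline, 8.47, 8.25 and 8.42 with progestin, and 8.86, 8.97 and 8.82 with vehicle (log2). Its mRNA was thus lower on every progestin-treated array than on any vehicle array. The progestin change was -0.50 (SE 0.08, adjusted p = 0.00196), while a second ESR1 probe set with lower signal gave 0.30 (adjusted p = 0.43). GATA3, a luminal transcription factor, fell by 0.51 (SE 0.08, adjusted p = 0.00161), and TFAP2C, a factor that supports ESR1 transcription, fell by 0.41 (SE 0.08, adjusted p = 0.00574). NRIP1, a corepressor induced by estrogen, fell by 0.58 (SE 0.16, adjusted p = 0.0262) and lost its call without vehicle replicate 1 or 2, without progestin replicate 1 or 2 and with the replicate number as a block (adjusted p up to 0.0893).

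XBP1, a factor of the secretory stress response, rose by 0.23 (SE 0.07, adjusted p = 0.0348). That call was lost in 10 of 15 alternative settings, among them each omission of a vehicle or progestin array (adjusted p up to 0.103). FOXA1, the pioneer factor of the receptor, had a progestin change of -0.02 (SE 0.08, adjusted p = 0.861), and ESR2, the second estrogen receptor, of -0.16 (SE 0.16, adjusted p = 0.522). ESR2 read below the array's median on every array, and whether it was above background is not known. With doxycycline added to progestin 0 of the 8 were called, and 1 had an unadjusted p under 0.05, near the 14.0% of all probe sets. It was PGR, at 0.33 (SE 0.07, adjusted p = 0.132, and 0.00417 with the variance trend, which called many more of all probe sets).

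**Figure D3:**
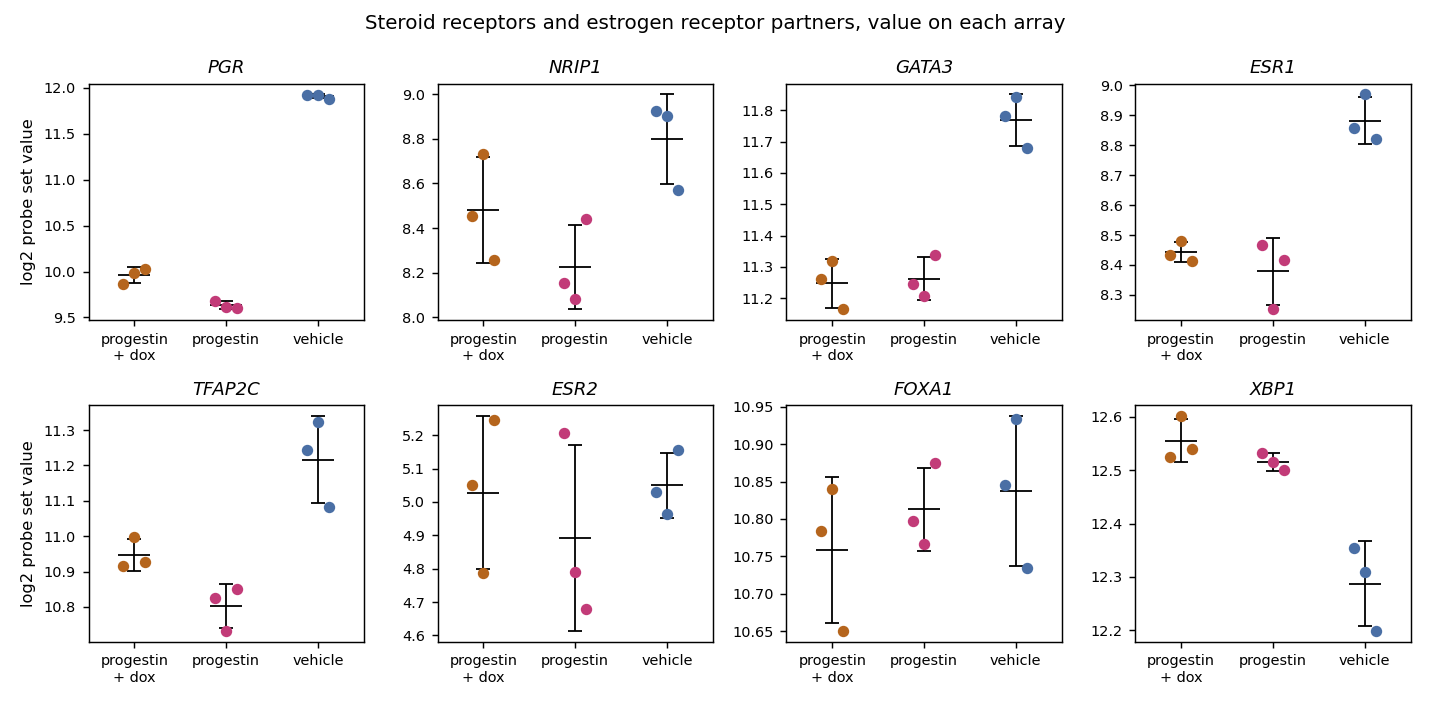
Log2 probe set value (y axis, a separate scale in each panel) of steroid receptors and estrogen receptor partners on each array, in progestin plus doxycycline, progestin and vehicle cells; points are arrays, and the bar and whiskers are the mean and SD of 3 arrays. For PGR, GATA3 and ESR1 the vehicle arrays lie above all the others, whereas for FOXA1 the 3 groups overlap.

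A wider list of 40 other estrogen-induced genes, 37 of them measured by a single-symbol probe set, was read in the same fit. Like the members, these genes were chosen with earlier results of these data known, so their counts are no independent check. With progestin, of the 37, 5 rose and 19 fell, against 13.4% higher and 15.6% lower among all probe sets, with a median of -0.32 log2 units. The count that rose is near the share of all probe sets. With progestin plus doxycycline against vehicle 7 rose and 18 fell, against 15.6% higher and 12.5% lower among all probe sets, with a median of -0.36. Here too the count that rose is near the share of all probe sets. The chemokine CXCL12 (log2 change -3.52, SE 0.09, adjusted p = 1.15e-07), the fatty acid elongase ELOVL2 (-2.90), the potassium channel KCNK5 (-2.64) and the secreted glycoprotein OLFM1 (-2.61) fell, as did the guanine nucleotide exchange factor RAPGEFL1 (-1.31) and IGFBP5, a binding protein of insulin-like growth factors (-1.08). These 6 had the smallest p among those that fell, with an adjusted p of at most 2.26e-05 and groups without overlap. On the progestin-treated arrays KCNK5 read below the array's median and OLFM1 near or below it. The limit given for the folds of PDZK1/PDZK1P1 and TFF1 holds for them too.

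CXCL12 read 7.49, 7.25 and 7.33 with progestin plus doxycycline, 7.77, 7.80 and 7.71 with progestin, and 11.30, 11.36 and 11.17 with vehicle (log2). Those that rose were the glycoprotein hormone STC1 (1.93, adjusted p = 2.93e-05), the microtubule protein MAPT (1.21, adjusted p = 4.87e-05), IL6ST, the shared receptor chain of interleukin-6 cytokines (0.64, adjusted p = 0.000149), the lysosomal protease CTSD (0.30, adjusted p = 0.00769) and the carnitine transporter SLC22A5 (0.33, adjusted p = 0.0183). The SLC22A5 call was lost without vehicle replicate 1, progestin replicate 1 or progestin replicate 3 (adjusted p up to 0.0595). STC1 and MAPT read below the array's median on all vehicle arrays, so the same limit holds for the size of their rise.

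With doxycycline added to progestin 0 of the 37 were called, against 0.0189% of all probe sets, and 9 had an unadjusted p under 0.05, against 14.0%. The smallest p values belonged to CXCL12 (-0.41, adjusted p = 0.132), IL6ST (0.25, adjusted p = 0.166) and the adenylate cyclase ADCY9 (0.36, adjusted p = 0.171). With the variance trend, which called many more of all probe sets, their adjusted p was 0.0113, 0.00588 and 0.0443 in the same order.

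**Figure D4:**
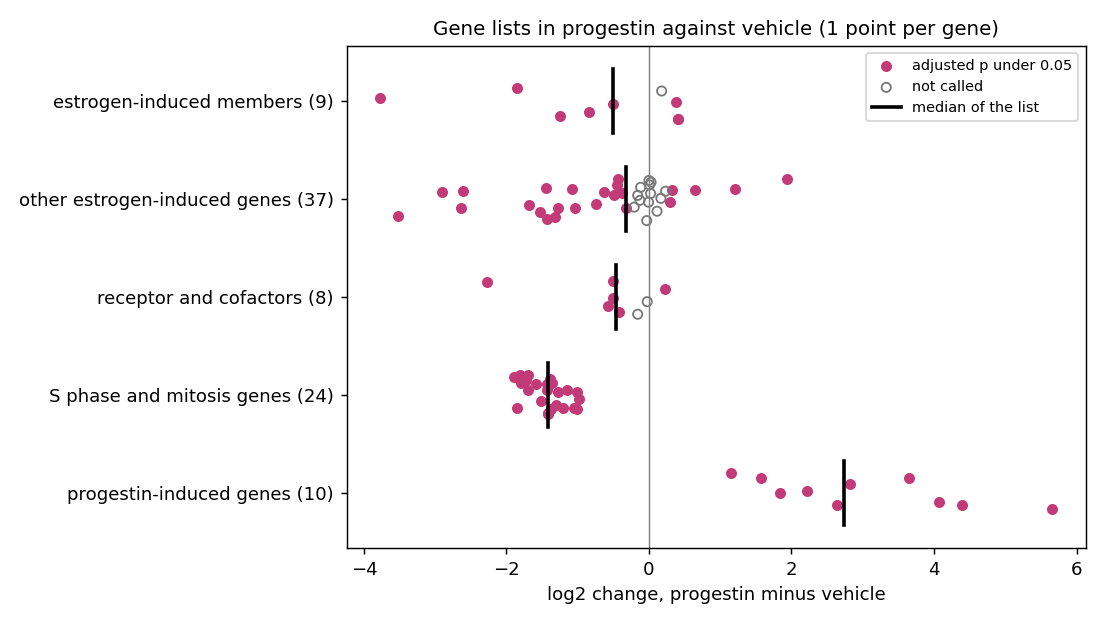
Log2 change of progestin minus vehicle (x axis) for each gene of 5 lists (rows, number of measured genes in brackets); filled points passed an adjusted p of 0.05, open points did not, and the black line is the median of the list. The members and the other estrogen-induced genes lie on both sides of 0, with medians of -0.51 and -0.32. Without the shared PDZK1/PDZK1P1 probe set the median of the members is -0.16.

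Other gene lists were read in the same comparison. Of 24 S phase and mitosis genes 24 fell with progestin, against 15.6% of all probe sets, with a median of -1.42. Of 10 measured progestin-induced genes 10 rose, against 13.4%, with a median of 2.74. Both lists were chosen with earlier results of these data known, and the second was chosen as progestin-induced. Cell division itself was not measured on these arrays, and any part of it in the members' changes was not tested. With doxycycline added to progestin 0 genes of either list were called, against 0.0189% of all probe sets, and the medians were -0.15 and 0.11. Of the 24 S phase and mitosis genes 10 had an unadjusted p under 0.05, against 14.0% of all probe sets. With the variance trend, which called many more of all probe sets, 3 were called lower (CCNB1, PLK1 and CDC20). Of the 10 progestin-induced genes 0 had an unadjusted p under 0.05.

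The gene outside the set with the most similar profile was found for each member by Pearson correlation over the 9 arrays, among genes with a mean above the median of named probe sets and an SD over the arrays of at least 25% of the member's. It was OLFM1 for PDZK1/PDZK1P1, ACO1 for TFF3, DCBLD2 for MYB, CLCC1 for TFF1, SNRPF for AGR2, KDM6A for AGR3, SRGAP2 for GREB1, ALDH4A1 for CA12 and SOD2 for SIAH2. The arrays form 3 groups, so such a correlation mostly reads the group means. The SD limit left pools of very different size, and a correlation above 0.95 was reached by 318 of 727 genes for PDZK1/PDZK1P1, 978 of 9227 for CA12 and 66 of 9300 for SIAH2. The correlations were 0.985 to 0.998. SRGAP2, nearest to GREB1, had log2 changes of 0.96 for progestin against vehicle and 0.49 for doxycycline added to progestin.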

How the data were processed

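Gene expression was measured on 9 arrays, 3 in each of 3 groups assigned by the sample titles. The deposited table holds the authors' log2 value per probe set and array. The log2 scale was read from the values, and the normalization and genome build are not given in the sources used here. PLIER, limma, Affymetrix Expression Console and Affymetrix Power Tools are named, without roles, per the submitters' processing notes.

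Of 33297 probe sets, 19460 carried 1 gene symbol, 1754 several and 12083 none. The 21214 with a symbol were tested with limma 3.58.1 in R 4.3.3: a mean for each group fitted on all 9 arrays, moderated variances, Benjamini-Hochberg adjustment over all 21214, and a threshold of 0.05. Adjusted p-values are from this fit except where a setting is given. The fit was tested on simulated data. The residual SD had a median of 0.151 log2 units. Median values of the arrays lay between 7.19 and 7.28, and values below 0 numbered 14 to 97 per array. The number of arrays limits precision. The p-values measure the spread between arrays, which the design text calls independent experiments.

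Genes with several probe sets stand by the one with the highest mean. PDZK1 had no probe set of its own, so the shared one was used, against the planned rule. Named beside the members and ELF5 are all receptor and partner genes, the up to 6 called in each direction and the 3 with the smallest p after doxycycline from the wider list, and the nearest profile per member. Members and lists were chosen with earlier results of these data known.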

Additional observations from a re-analysis of the deposited data

How the results depend on the processing

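Each result was recomputed under 15 alternatives: quantile normalization, leaving out the 25% dimmest probe sets, a variance trend with robust estimation, 16 added to the linear values, only the 2 groups fitted, the replicate number as a block, and without each of the 9 arrays. Each member had 1 probe set, so averaging probe sets could not differ and was not run. The number of members called was 7 to 9 for progestin against vehicle and 9 throughout for progestin plus doxycycline against vehicle. For progestin plus doxycycline against progestin it was 0, except 1 with the variance trend (GREB1).

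Over all probe sets, the progestin plus doxycycline against progestin count of 4 became 5 with quantile normalization, 158 without the dimmest 25%, 530 with the variance trend, 15 with 16 added, 0 with only the 2 groups fitted, 0 with the replicate block, and 0 to 2 with 1 array left out. The cause was not tested, except that the 2-group fit and the omissions hold fewer arrays. The replicate block gave 5378 probe sets against 6161 for progestin against vehicle and 5240 against 5953 for progestin plus doxycycline against vehicle, and 8, 0 and 9 members as without it. Deviations of same-numbered arrays from their group means had correlations of -0.146 to 0.196 over 9 pairs. Arrays with other numbers had -0.182 to 0.17 over 18 pairs. No pairing by number was seen, but so few arrays cannot exclude it. In 4 of 18 cases an array's deviations correlated best with its own number in another group. Of 135 member and setting pairs in progestin against vehicle, 129 kept their call, 4 lost it (all AGR3) and 2 gained it (both SIAH2). With doxycycline added to progestin, 5 changes near 0 turned sign, for TFF3 to -0.0034 without progestin replicate 2 and -0.0169 without progestin plus doxycycline replicate 3, for AGR2 to -0.012 with quantile normalization, and for MYB to 0.0349 without progestin replicate 3 and 0.0139 without progestin plus doxycycline replicate 1. With 1 array left out, the TFF3 change ranged from -0.0169 to 0.1502 and the MYB change from -0.1005 to 0.0349. Quantile normalization moved the median of all probe sets by under 0.05 log2 units in each comparison.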
